A study of Mus musculus with 13 samples.

Results

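The regions described here are stretches of macrophage chromatin whose H3K27ac signal was low after LPS and higher when IL-10 was present for the whole LPS exposure. They number 1254 of 40691 regions in the deposited table. The mark, acetylated lysine 27 of histone H3, was profiled by ChIP-seq in mouse bone marrow-derived macrophages. All groups share the genotype IL10-/-RAG2-/- on the strain 129S6/SvEvTac, so no group could supply IL-10 itself, and all were grown from marrow precursors for 5 days with M-CSF, the macrophage growth factor. The 4 groups of 3 libraries were untreated cells, cells given LPS (bacterial lipopolysaccharide) at 1 ng/mL for 195 min, cells that received 1 ng/mL IL-10 together with LPS throughout those 195 min (continuous IL-10), and cells given LPS for 195 min with IL-10 added for the last 30 min (late IL-10). The replicates came from 3 independent pools of macrophages, so p-values measure the spread between pools of cultured cells of this genotype.

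Members were chosen from the untreated, LPS and continuous IL-10 libraries on the log2(value + 1) scale. A member was under 20000 bp wide, had a mean after LPS at least 2 below the untreated mean, with every LPS library below every untreated library, had a continuous IL-10 mean at least 2 above the LPS mean, and had a continuous IL-10 mean less than 2 above the untreated mean. Of 38900 regions under the width limit, 6600 met the LPS part of this rule, and 1254 of those met the IL-10 part. Another 3952 of the 6600 had a continuous IL-10 mean less than 1 above LPS, and they serve below as the regions that were not restored. Everything that compares untreated, LPS and continuous IL-10 libraries over the members is therefore description. The late IL-10 libraries had no part in the choice and were tested.

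LPS is sensed by TLR4 and sets off NF-kB, AP-1 and interferon signalling, which activates inflammatory enhancers while many enhancers of resting macrophages lose acetylation. IL-10 is an anti-inflammatory cytokine that acts on macrophages through its receptor, JAK1 and the transcription factor STAT3. H3K27ac marks active enhancers and promoters, is laid down by p300 and CBP, and is removed by histone deacetylases.

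Most members lie away from promoters, and no genome sequence of this build was used here, so the sequences shown are the promoter windows (250 bases before to 50 bases after a RefSeq start site, GRCm38.p6) that lie inside members. The members held 86 such windows of 74 genes. Capitals mark matches, on either strand, to TGANTCA (AP-1), TTCNNNGAA (STAT), CACGTG (E-box), GGAAGT (ETS), TTGCNNAA (C/EBP), GGGCGG (SP1) or an interferon-response motif, a pair of GAAA separated by 2 bases. The first promoter is that of Cd244a, the member with the largest late IL-10 minus LPS difference among the 66 that hold a promoter, at chr1:171558943-171559242 on the plus strand. It holds, in order, a C/EBP, an AP-1 and an E-box match. Nxpe5, at chr5:138225654-138225953 on the plus strand, is shown because its region has the largest gain with continuous IL-10 among members that hold a promoter, and none of the motifs searched was in its window. The Slco2b1 window at chr7:99706793-99707092 on the minus strand holds a STAT match, and a second Slco2b1 window, at chr7:99711291-99711590, holds an ETS and an AP-1 match that share 1 base. The Ccr6 window at chr17:8235793-8236092 on the plus strand was picked after its values were seen because it is the only member promoter with 2 STAT matches.
Cd244a: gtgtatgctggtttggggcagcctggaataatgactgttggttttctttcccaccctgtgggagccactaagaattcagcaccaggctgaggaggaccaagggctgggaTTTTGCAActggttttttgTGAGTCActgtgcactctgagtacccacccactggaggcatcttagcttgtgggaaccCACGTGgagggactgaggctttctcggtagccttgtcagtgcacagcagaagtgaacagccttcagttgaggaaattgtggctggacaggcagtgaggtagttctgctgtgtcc
Nxpe5: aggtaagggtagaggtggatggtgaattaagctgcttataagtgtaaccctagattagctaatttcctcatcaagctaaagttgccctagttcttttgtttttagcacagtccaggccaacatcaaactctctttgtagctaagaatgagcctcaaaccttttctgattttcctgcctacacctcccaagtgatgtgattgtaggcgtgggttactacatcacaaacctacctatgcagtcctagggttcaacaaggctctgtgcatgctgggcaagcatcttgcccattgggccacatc
Slco2b1, first window: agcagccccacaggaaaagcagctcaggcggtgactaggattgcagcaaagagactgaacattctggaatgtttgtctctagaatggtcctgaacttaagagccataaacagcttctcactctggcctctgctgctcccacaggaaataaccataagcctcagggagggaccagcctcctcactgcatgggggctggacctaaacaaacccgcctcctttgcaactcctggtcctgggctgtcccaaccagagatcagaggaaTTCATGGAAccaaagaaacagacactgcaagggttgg
Slco2b1, second window: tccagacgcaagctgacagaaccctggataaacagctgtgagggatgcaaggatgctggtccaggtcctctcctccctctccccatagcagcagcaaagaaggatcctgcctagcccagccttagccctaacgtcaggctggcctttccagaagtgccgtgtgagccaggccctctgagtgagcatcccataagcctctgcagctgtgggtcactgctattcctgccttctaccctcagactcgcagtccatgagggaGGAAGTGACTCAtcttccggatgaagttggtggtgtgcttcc
Ccr6: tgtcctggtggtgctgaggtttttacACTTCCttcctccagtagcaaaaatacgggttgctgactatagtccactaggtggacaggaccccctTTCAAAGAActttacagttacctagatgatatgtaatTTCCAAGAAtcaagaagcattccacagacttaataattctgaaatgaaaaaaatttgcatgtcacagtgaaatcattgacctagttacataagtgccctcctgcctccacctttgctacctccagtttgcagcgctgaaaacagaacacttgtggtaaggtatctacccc

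The STAT letters TTCNNNGAA were found in 12 of the 86 member windows (14.0%), against 7.66% of 261 windows in regions that were not restored, 6.85% of 11398 windows in any region and 7.69% of all 21262 windows. In the same order of sets, GGAAGT was in 30.2%, 28.0%, 30.0% and 24.8% of windows. The corresponding shares were 5.81%, 6.90%, 4.98% and 6.99% for TGANTCA and 9.30%, 9.20%, 10.2% and 7.84% for CACGTG. For TTGCNNAA they were 9.30%, 13.8%, 8.41% and 10.2%. They were 2.33%, 4.21%, 3.40% and 3.35% for the interferon-response motif. GGGCGG, common in CpG-rich promoters, was in 47.7%, 46.7%, 64.0% and 46.2%. Member windows had a median of 55.5% G and C and 8 CpG dinucleotides. The medians were 56.3% and 12 in windows of regions that were not restored. In windows of any region they were 61.3% and 21, and in all windows 56.3% and 13. These are counts of letters in a small set of windows, some of which overlap one another, and they were not tested.

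The deposited values stood for 5149730 to 26922552 reads per library. The smallest value was worth 1 read, and it was given to 19.7% to 29.9% of regions depending on the library. A region at 1 read is at that floor and is not shown to be free of H3K27ac. All 9 macrophage markers checked (among them Csf1r, Adgre1 and Spi1) overlapped a region, and the strongest region of each had an untreated mean between 11.08 and 12.97 on the log2(value + 1) scale. The strongest regions of 5 T cell markers lay between 0.82 and 7.22. The highest marker of other cells was at 10.76 for neutrophils (Mmp8), 11.63 for dendritic cells (Xcr1), 11.19 for B cells (Ms4a1), 6.81 for erythroid and mast cells (Klf1) and 12.97 for fibroblasts (Pdgfrb, the neighbour of Csf1r), and the part of other cells in the results below was not tested. In a bulk measurement, fewer cells carrying the mark and less of the mark per cell cannot be told apart.

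Over the 1254 members the signal was high in untreated cells, close to the floor after LPS, partly regained with continuous IL-10 and intermediate with late IL-10. The median member value was 137.9, 122.9 and 123.7 in untreated replicates 1 to 3 and 1.97, 1.68 and 4.64 after LPS. Continuous IL-10 gave 50.6, 50.8 and 62.1, while late IL-10 gave 12.3, 15.2 and 28.3. The medians were lowest after LPS and highest in untreated cells, the rule having set LPS below both untreated and continuous IL-10, and late IL-10 lies between LPS and continuous IL-10 for each of the 3 replicate numbers. Exactly 1 read was found in 64.7%, 64.0% and 39.6% of members in the LPS libraries and in 40.4%, 39.4% and 17.7% in the late IL-10 libraries. LPS replicate 3 and late replicate 3 both had more reads than the other libraries of their group.

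**Figure D1:**
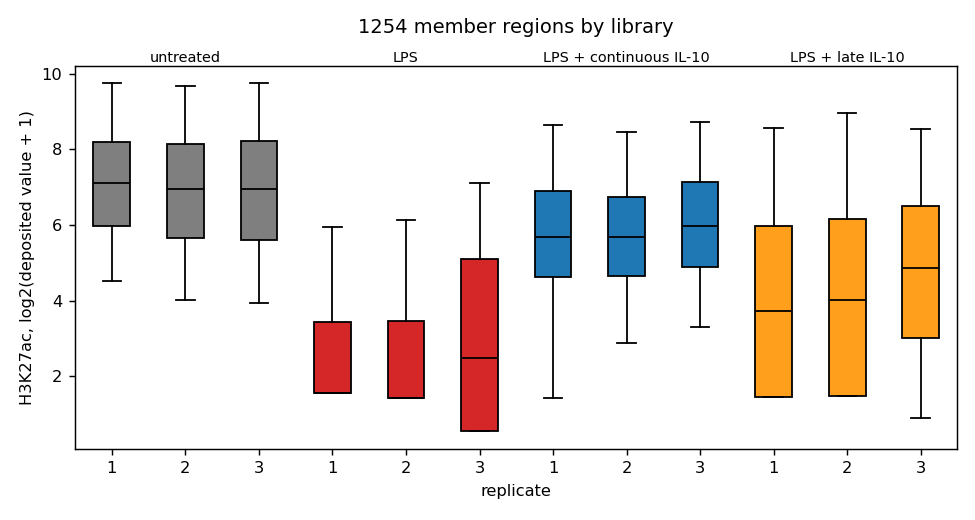
H3K27ac of the 1254 members in each of the 12 libraries, as log2 of the deposited value plus 1 on the vertical axis, by replicate within each group. Boxes span the quartiles with the median as a line and whiskers run from the 5th to the 95th percentile, and the medians of the 3 late IL-10 libraries lie between those of the LPS and the continuous IL-10 libraries.

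The median member was 4667 bp wide, compared with 3031.5 bp for regions that were not restored and 2916 bp for all regions under the width limit. Its untreated level was also higher, at 6.99 on the log2 scale against 5.90 for regions that were not restored. The median LPS minus untreated difference was -4.10 on the log2 scale, that of continuous IL-10 minus LPS was 2.82 and that of continuous IL-10 minus untreated was -1.10. For 582 members (46.4%) the continuous IL-10 mean came within 1 of the untreated mean or above it, and for 214 (17.1%) it was above it. In 300 members (23.9%) it was still more than 2 below. All 3 continuous IL-10 libraries lay below all 3 untreated libraries in 590 members (47.0%, beside 23.4% of all regions tested), the ranges overlapped in 616 (49.1%), and in 48 (3.83%, beside 18.1%) all 3 lay above. In 913 members (72.8%, beside 10.6% of all regions tested) all 3 continuous IL-10 libraries lay above all 3 LPS libraries. These shares follow from the rule and nothing is read from them.

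The limits of the rule cut through a continuum. Just inside the limit of -2 for LPS minus untreated lay a region of Msn (moesin, an actin linker) at -2.01 and one of Ankrd55 at -2.02. Just outside lay a region near Arg1 (arginase 1), at chr10:24946746-24953162, and one of Syt14 with -1.99. The Arg1 region had values of 87.7, 163 and 227 in untreated cells, 33.4, 50.4 and 28.3 after LPS and 629, 509 and 536 with continuous IL-10. At the limit for continuous IL-10 minus LPS, Mcur1 and Dennd4a lay just inside and Mical1 and Nlrc5 just outside, all at 2.00 after rounding. At the upper limit, regions near Smad7 (1.99 above untreated) and Gm5150 (1.96) were inside, and regions of Rab31 (2.01) and near Rab12 (2.05) were outside.

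Because members were picked for low LPS and high continuous IL-10 values, part of both differences comes from the picking. Regions were therefore also chosen by the same rule from 2 replicate numbers and read in the libraries of the number left out. In the held-out libraries, 55.1% of 1631 regions chosen without replicate 1 had both a drop of at least 1 with LPS and a gain of at least 1 with continuous IL-10. For replicates 2 and 3 the shares were 65.2% of 1539 and 52.5% of 1730. The same held for 12.9%, 12.6% and 12.2% of all regions and for 16.1%, 20.5% and 25.1% of regions chosen in the same way as not restored. The median gain with continuous IL-10 in the held-out libraries was 1.58, 2.06 and 1.27, smaller than the 2.82 of the members as chosen. The LPS loss held more often than the gain, in 91.7%, 88.2% and 79.1% of the chosen regions against 57.9%, 70.3% and 56.8%.

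**Figure D2:**
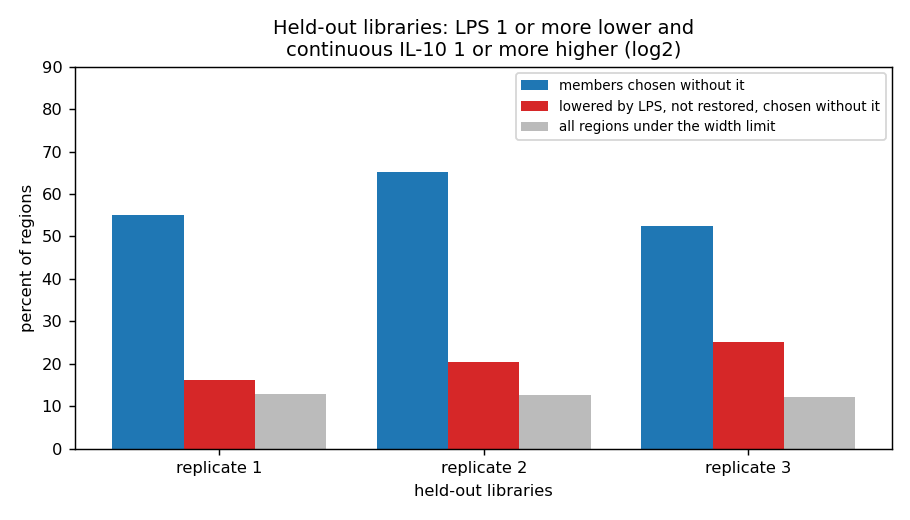
Percent of regions (vertical axis) whose held-out LPS library was at least 1 lower than untreated and whose held-out continuous IL-10 library was at least 1 higher than LPS, for each held-out replicate number. Bars are regions chosen as members without those libraries (52.5% to 65.2%), regions chosen as not restored (16.1% to 25.1%) and all regions under the width limit (12.2% to 12.9%).

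Late IL-10, added for the last 30 min, was tested against LPS alone. The LPS libraries were chosen to be low in these regions, which favours a higher late value. The regions that were not restored met the same LPS limits but were picked for a small gain over those LPS values, which favours the opposite, so setting the members beside them does not remove this. All 1254 members passed the filter on low values. Late IL-10 was higher than LPS in 239 members (19.1%, beside 3.14% of all regions tested) and lower in 0 (beside 0.396%). The count was 344 (27.4%, beside 6.17%) with the replicate block and 193 (15.4%, beside 2.41%) with edgeR. It was 62 when only these 2 groups were fitted, and 153 without late replicate 1 and also without late replicate 2. Shares over all regions were not taken for these last fits. A change in their member counts therefore cannot be told from a change over all regions. Of the 3476 tested regions that LPS lowered and continuous IL-10 did not restore, 24 (0.690%) were higher. In the main limma fit no member was lower after adjustment, and 8 were at an unadjusted p under 0.05. The limma fit with the replicate block and edgeR each called 1, the region of Lig1 (0.0797%, beside 1.92% and 0.24% of all regions). All 3 late libraries lay above all 3 LPS libraries in 368 members (29.3%, beside 8.18%) and below them in 8 (0.638%, beside 6.04%). The median late minus LPS difference was 1.22 in members and 0.11 in regions that were not restored, where 0.11 is also the difference between 2 groups that lie at 1 read throughout.

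The response to late IL-10 was uneven. In 456 members (36.4%) the late mean was at least 2 above LPS, beside 6.54% of all regions under the width limit. In 242 (19.3%, beside 54.7%) it was at or below LPS. It was nearer to LPS than to continuous IL-10 in 687 (54.8%), close to the 53.2% of all regions under the width limit. The 239 members called higher were wide, with a median of 6298 bp, and had a median level of 7.37 with late IL-10 against 6.86 with continuous IL-10 and 7.32 untreated. The 242 members at or below LPS had the same median untreated level of 7.32 and a median of 5.77 with continuous IL-10, but 2.34 with late IL-10. The LPS libraries were at or under 3 reads in all replicates in 90 of the 239 (37.7%) and in 13 of the 242 (5.37%). A late mean at or below LPS is hardly possible where LPS is at the floor, so these shares follow from the sorting. The late levels of the 239 and of the 242 were themselves used in the sorting. Over all members the median late level was 3.83. By width, 44.2% of members under 3000 bp and 16.8% of those of 10000 bp or more were at the LPS floor, and late minus LPS had a median of 0.95 and 1.80 in them.

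**Figure D3:**
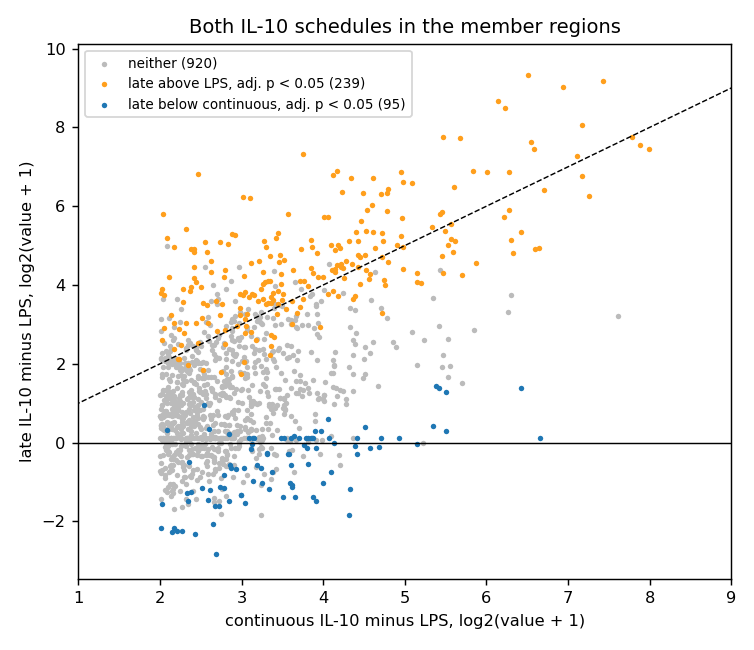
Each point is a member, with continuous IL-10 minus LPS on the horizontal axis and late IL-10 minus LPS on the vertical axis, both in log2(value + 1), where the dashed line marks equal values. The 239 members called higher than LPS with late IL-10 spread around and above the dashed line, the 95 called lower than continuous IL-10 lie near or below 0 on the vertical axis, and the differences share the LPS libraries, so the position along the line is not independent.

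The 8 largest late IL-10 minus LPS differences among members stood where every LPS library was at exactly 1 read, worth 1.97, 1.68 and 0.464 in LPS replicates 1 to 3. Cd244a encodes a SLAM-family receptor of lymphoid and myeloid cells, and its region at chr1:171553398-171563812, which holds the promoter printed above, had values of 712, 417 and 517 in untreated cells. It had 239, 239 and 369.6 with continuous IL-10, compared with 1286, 1188 and 1052 with late IL-10. All late libraries lay above every other library. The late mean was at least 286-fold above 3 LPS reads, and the difference of 9.01 on the log2 scale had a 95% interval of 8.03 to 10.00 (adjusted p = 9.42e-07). Late IL-10 was also higher than continuous IL-10 there, by 2.08 (adjusted p = 0.0318), a call that was lost when single untreated, continuous or late libraries were left out, with an adjusted p of up to 0.159 without late replicate 1.

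A pair of adjoining regions of Ccdc191 also belonged to this set, one of them shared with Zdhhc23, which encodes a palmitoyltransferase. At chr16:43960685-43972469 the values were 92.6, 197 and 132 untreated, 501, 408 and 289.8 with continuous IL-10, compared with 1389.5, 1890.2 and 875 with late IL-10, with 1 read in each LPS library. The 3 late libraries were the highest, the continuous libraries came next, and neither overlapped the untreated libraries. Late IL-10 exceeded LPS by 9.19 (adjusted p = 1.3e-06) and untreated by 3.29 (adjusted p = 0.000399). The neighbouring region at chr16:43946118-43959452 was higher than LPS by 8.50 and than untreated by 2.64 (adjusted p = 0.00823).

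Tram2, which encodes a translocon protein of the endoplasmic reticulum, had a pair of members. The region at chr1:21032308-21038769 had 274, 314 and 270.1 untreated, 1 read in each LPS library, 279.9, 368 and 335 with continuous and 673, 699 and 457 with late IL-10. The other, at chr1:21006757-21018500, kept signal after LPS, with 110.2, 92.4 and 127 against 688, 787 and 637 untreated and 794, 910.2 and 647 with late IL-10. Late IL-10 was higher than LPS in both, by 8.05 (adjusted p = 1.55e-06) and 2.82 (adjusted p = 0.000179), and in the second region the late and untreated ranges overlapped.

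At Nxpe5, chr5:138220100-138232943, the untreated values were 1349.6, 1488 and 1180.3, each LPS library was at 1 read, and values were 341, 277 and 321 with continuous and 291, 503 and 288 with late IL-10. Both schedules were far above LPS and below every untreated library. Late IL-10 was at least 87.7-fold above 3 LPS reads (difference 7.27, adjusted p = 1.98e-06) and lower than untreated by a difference of -1.93 (adjusted p = 0.005). Late and continuous IL-10 differed by 0.16, with an interval of -0.83 to 1.14.

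Further members named for the size of their gain had 1 read in each LPS library and passed the test with late IL-10. Crtc3, a coactivator of CREB, had late values of 379, 439 and 371 beside 327, 289.9 and 415 untreated (difference from LPS 7.45). Antxr2, the receptor for anthrax toxin, had 317, 331 and 170.1 beside 353, 335 and 320.3 (6.86). In both, the late and untreated ranges overlapped. Usp12, a deubiquitinase, had 555, 595 and 338 with late IL-10, above its untreated values of 105, 79.4 and 35.6, and late IL-10 was higher than untreated by 2.83 (adjusted p = 0.00389). Gpr35, a G protein-coupled receptor, had 300.1, 141 and 308 with continuous and 211, 185 and 186 with late IL-10 against 72.1, 83.2 and 54.4 untreated. Its late minus untreated difference of 1.48 did not pass (adjusted p = 0.078).

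The largest late minus LPS difference of all members, 9.33 (adjusted p = 1.3e-06), belonged to a region between genes at chr5:32100446-32114909, which was singled out after its values were seen. Its nearest gene was Babam2, a subunit of deubiquitinase and DNA repair complexes, and its late values were 1972, 2137 and 736 beside 302, 212 and 263 untreated. The next region, 1464 bp further on and not a member, overlaps Fosl2, an AP-1 family gene, and had LPS values of 1375, 1480.5 and 2799. The member was at 1 read in each LPS library while the region beside it stood at 1375 or more in all of them. Late IL-10 exceeded continuous IL-10 in 4 members (0.319%, beside 1.86% of all regions tested): this one, Cd244a, and regions nearest to Cxadr and Ly86, and none of these calls held in every fit with 1 library left out (adjusted p up to 0.117, 0.159, 0.181 and 0.181). With the replicate block the count was 25 (1.99%, beside 8.02%). All 3 late libraries lay above all 3 continuous ones in 81 members (6.46%, beside 12.4%).

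Members at the LPS floor often lay beside regions above it, though less often than other regions did. All LPS libraries were at or under 3 reads in 375 members (29.9%). This held for 45.9% of regions that were not restored and 13.4% of all regions under the width limit. Of the 375 members, 259 had another region within 10 kb, and in 184 of these (71.0%) that neighbour was above the floor after LPS. For members above the floor the share was 78.2% of 643, and over all regions 88.5% of 27396. In 78 of the 259 the neighbour had a mean of 6 or more on the log2 scale after LPS. No source used here says whether background reads were subtracted, and the part of such a step was not tested.

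The members with the strongest untreated signal among those that overlap a gene mostly kept signal after LPS. Rab3il1, an exchange factor for Rab GTPases, has a member at chr19:10017004-10029603 with 1984, 1796 and 2770.0 untreated, 209, 274 and 635 after LPS, 1705, 1526 and 2387 with continuous and 1552, 1901 and 2368 with late IL-10. The LPS libraries stood apart from all others, and the other 3 groups overlapped. Late IL-10 was higher than LPS by 2.53 (interval 1.70 to 3.35, adjusted p = 0.00221), and its difference from untreated was -0.17 (interval -0.99 to 0.66).

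Ap1b1, a subunit of a clathrin adaptor, had 2040.2, 2284 and 1884 untreated, 118, 259 and 167 after LPS and 1224, 1786 and 1337 with late IL-10 (difference 3.04, adjusted p = 0.000208). Prss22, a serine protease gene, had 112, 94.1 and 268 after LPS and 944, 941 and 1229 with late IL-10 (2.86, adjusted p = 0.00104). Rnf130, a ubiquitin ligase gene, was higher than LPS by 2.60 (adjusted p = 0.0153), a call lost without late replicate 1 or 2 (up to 0.0848) and when only the 2 groups were fitted. In Ap1b1 and Prss22 every late library lay above every LPS library and below every untreated one, and in Rnf130 the late and untreated ranges overlapped. Rin3, described below, was another of the 8 strongest that overlap a gene, and the remaining 3 did not pass against LPS: Mad1l1 (spindle checkpoint), Fam234a and the region shared by Ank (a pyrophosphate transporter) and Otulin (a deubiquitinase).

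The gene lists are read beside all 14978 protein-coding genes with a region, of which 6.50% had a member. Over those genes members made up 3.07% of regions and 18.8% of the regions lowered by LPS, and 19.0% of members were called higher than LPS with late IL-10. Among 26 genes of the IL-10 and STAT3 target list, 5 (19.2%) had members. They held 7 member regions, 7.87% of the regions and 38.9% of the lowered regions of the list. Of the 7, 3 were called higher than LPS with late IL-10. Nfil3, a basic leucine zipper repressor induced by IL-10, has a member 2105 bp from the gene at chr13:52960410-52965104. Its values were 224, 156 and 116 untreated, 1 read in each LPS library, 52.3, 47.0 and 65.0 with continuous and 241, 271 and 200.2 with late IL-10. All late libraries were above all continuous ones, and late IL-10 exceeded LPS by 6.71 (adjusted p = 7.09e-05). The late minus continuous difference of 2.10 did not pass (adjusted p = 0.0893).

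Bcl3, an atypical IkB protein, had a member at chr7:19799943-19807341 with 144, 134 and 48.6 untreated, 9.84, 25.2 and 37.6 after LPS, 115, 78.8 and 216 with continuous and 336, 382 and 317 with late IL-10. The late libraries lay above all others. Late IL-10 was higher than LPS by 3.96 (adjusted p = 0.00341) and than untreated by 1.80 (adjusted p = 0.0409), the second of which was lost in 8 settings, up to 0.153 without untreated replicate 3 and at 0.0517 with edgeR.

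Zfp36l1, an mRNA decay factor, had 3 members with different values. The first, at chr12:80007689-80019470, had 33.4, 28.6 and 73.3 after LPS and 111, 194 and 127 with late IL-10 (1.73, adjusted p = 0.0408, lost whenever any 1 library except LPS replicate 3 was left out, at 0.0649 with edgeR and at 0.453 when only the 2 groups were fitted). The third, at chr12:80056577-80073220, had 283, 353 and 244 with continuous but 26.4, 1.79 and 38.1 with late IL-10, and late IL-10 was lower than continuous (difference -4.34, adjusted p = 0.0189, up to 0.0856 without continuous replicate 2). Gadd45g, a stress response gene, and Tgfbi, a matrix protein gene, did not pass against LPS, with differences of 1.26 and 1.14.

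Of 35 macrophage surface and effector genes, 3 (8.57%) had members, 4 of 10 lowered regions, and 2 of the 4 were called higher with late IL-10. Mrc1, the mannose receptor, has a member at chr2:14257446-14264116 that also holds the hairpin of Mir511, a microRNA of an Mrc1 intron. Its mature strand is shown, with the seed (bases 2 to 8) in capitals, because the member that holds it passed the test below.
miR-511-3p: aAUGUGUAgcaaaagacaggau
Values in the Mrc1 member were 138, 183 and 18.8 untreated, 11.8, 1.68 and 0.464 after LPS, 55.6, 61.0 and 22.7 with continuous and 164, 321 and 159 with late IL-10. The late libraries lay above all LPS and continuous libraries and overlapped the untreated ones, of which replicate 3 was low. Late IL-10 was higher than LPS by 5.79 (adjusted p = 0.00537). Tlr4, the LPS receptor, had a pair of members. The region at chr4:66890683-66896591 had late values of 95.1, 129 and 67.3 against 9.84, 11.8 and 0.464 after LPS (4.01, adjusted p = 0.0246, lost without late replicate 1 or 2, with edgeR and, at 0.180, when only the 2 groups were fitted), and the other did not pass (adjusted p = 0.779). At Gas6, a ligand of TAM receptors in apoptotic cell uptake, the promoter-holding region had 1596, 1297 and 1106 untreated, 47.2, 118 and 175 with continuous and 1.76, 1.79 and 60.2 with late IL-10, and 2 of the 3 late libraries were at 1 read.

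**Figure D4:**
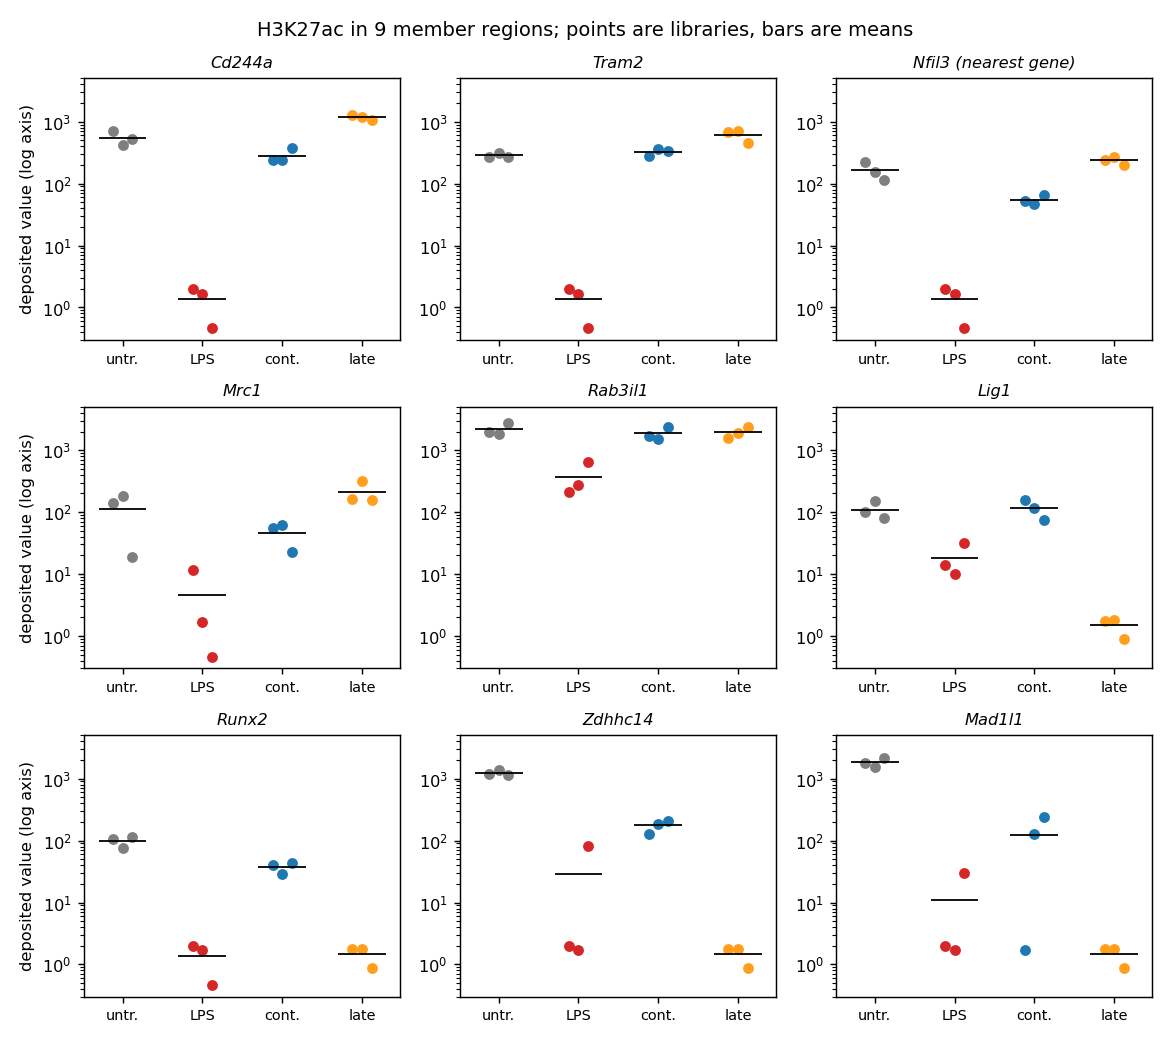
Deposited H3K27ac values on a log axis in 9 members, with a point for each library and a bar for each group mean, for untreated, LPS, continuous IL-10 and late IL-10 cells. Late IL-10 reaches or passes the untreated range in Cd244a, Tram2, Nfil3, Mrc1 and Rab3il1, and is at 1 read in all 3 libraries in Lig1, Runx2, Zdhhc14 and Mad1l1.

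Myeloid transcription factors had 7 members at 5 of 31 genes (16.1%). The genes of this list hold 202 regions, and members were 3.47% of these, close to the 3.07% over all genes. Members were 23.3% of their lowered regions, beside 18.8% over all genes. With late IL-10, 0 of the 7 were called higher than LPS (median late minus LPS 0.41). Runx2, a runt-domain factor, had a member at chr17:44669115-44674207 with 107, 75.6 and 116 untreated and 40.5, 29.2 and 43.4 with continuous IL-10, and 1 read in each LPS and each late library. Late IL-10 was lower there than continuous IL-10, with a difference of -3.97 (adjusted p = 0.0158, 0.0731 without late replicate 1 and 0.0777 when only the 2 groups were fitted). A member near Bhlhe41, a circadian and myeloid repressor, was likewise lower (-3.59, adjusted p = 0.0426, lost in 12 settings, up to 0.153 without late replicate 1). Members near Bhlhe40, a relative of Bhlhe41, and Fli1, an ETS factor, were weak, with untreated values between 8.37 and 49.0.

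The cholesterol and lipid list had 4 members at 2 of 32 genes (6.25%), or 18.2% of its lowered regions, and 0 were called higher with late IL-10. Scarb1, the HDL receptor, held 3 of them and Lrp1, an endocytic receptor, 1. At chr5:125347753-125353105 near Scarb1 the values were 112, 49.2 and 155 untreated and 13.5, 35.6 and 68.0 with continuous IL-10, with 1 read in each LPS and each late library. Late IL-10 was lower than continuous IL-10 there (-3.77, adjusted p = 0.0333, up to 0.120 without late replicate 1). The lysosome and endocytosis list had 4 members at 4 of 30 genes (13.3%), or 4.49% of its regions and 36.4% of its lowered regions. These also gave 0 calls against LPS. Ctsb, the protease cathepsin B, had 1279.6, 1145 and 668 untreated, 63.0, 28.6 and 86.7 after LPS, 199, 250.2 and 388 with continuous and 82.8, 211 and 237 with late IL-10. Its late values were lower than untreated by a difference of -2.62 (adjusted p = 0.00215). Atp6v0d2, a subunit of the vacuolar proton pump, had 862, 797 and 581 untreated, 1 read in each LPS library, 48.9, 1.27 and 12.8 with continuous and 1.76, 1.79 and 7.97 with late IL-10. The other members of that list were near Laptm5, a lysosomal membrane protein gene, and Dab2, a clathrin adaptor gene.

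Phosphoinositide and Rac signalling had 9 members at 7 of 30 genes (23.3%). The genes of this list hold many regions, and members were 3.83% of its regions and 19.6% of its lowered regions, close to the shares over all genes. With late IL-10, 2 of the 9 were called higher than LPS. Tiam1, an exchange factor for Rac, has a member at chr16:89978076-89987410 with 204, 194 and 172 untreated, 1 read in each LPS library, 10.1, 44.5 and 120.2 with continuous and 315, 259.8 and 187 with late IL-10. The late libraries overlapped the untreated ones and lay above the continuous ones, whose replicates ranged widely. Late IL-10 exceeded LPS by 6.78 (adjusted p = 0.000477). Rin3, an exchange factor for Rab5 GTPases, had 1341, 1704 and 2183 untreated, 17.7, 70.6 and 209 after LPS, 201, 206 and 445 with continuous and 807, 1039 and 874 with late IL-10 (late minus LPS 3.78, adjusted p = 0.00572, 0.0586 when only the 2 groups were fitted). The late libraries of Rin3 lay between the continuous and the untreated ones without overlap. Plcg2, a phospholipase C of immune receptors, had a member of 11635 bp with 15.7, 35.3 and 196 after LPS and 250.1, 278 and 481 with late IL-10, where 2.71 just missed (adjusted p = 0.0519). Rgs2, a regulator of G protein signalling, had 1898, 1922 and 1928 untreated, 506, 206 and 457 with continuous and 1.76, 1.79 and 159 with late IL-10. Its late minus continuous difference of -5.08 did not pass (adjusted p = 0.067), and late replicate 3 stood far above the other late libraries. Members at Arhgap25, a Rac GTPase-activating protein gene, and Rasgrp3, a Ras exchange factor gene, did not pass against LPS.

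Adhesion and migration genes had 8 members at 5 of 31 genes (16.1%), or 6.3% of their regions and 27.6% of their lowered regions. With late IL-10, 3 were called higher than LPS. Itga9, an integrin subunit gene, held a pair of these. At chr9:118630431-118635388 the values were 70.7, 27.7 and 28.5 untreated, 1.97, 1.68 and 3.25 after LPS, 143, 116 and 168 with continuous and 241, 159 and 163 with late IL-10. Both IL-10 schedules lay above every untreated library, and late IL-10 exceeded LPS by 5.84 (adjusted p = 0.000264). The second Itga9 call, of 3.59 (adjusted p = 0.0379), was lost in 11 settings, at 0.169 without late replicate 1 and 0.217 when only the 2 groups were fitted. Itga6, another integrin subunit gene, had a weak member that passed (59.9, 39.4 and 23.0 with late IL-10, 4.10, adjusted p = 0.00751, 0.123 when only the 2 groups were fitted). Its strong member at chr2:71808473-71818629 had 633, 464 and 681 untreated, 25.3, 6.35 and 80.8 with continuous IL-10 and 1 read in each late library. A member near Cxcr4, the CXCL12 receptor, had 548, 609 and 554 untreated and 1.69, 11.4 and 32.5 with continuous IL-10, again with 1 read in each late library.

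Lists of the inflammatory response are read beside the 6.50% of all genes with a member, and no difference from that share was tested. Of 28 inflammatory cytokine and chemokine genes with a region, 0 had a member, and 2 of their 62 regions met the LPS part of the rule. MHC class II and antigen presentation genes had 0 of 16, and 2 of their 34 regions met the LPS part of the rule. TLR and NF-kB pathway genes had 2 of 32 (6.25%, Map3k8, a kinase, and Tnip1, an inhibitor of NF-kB), close to the share over all genes. Interferon response genes had 1 of 26 (3.85%). Outside the inflammatory response, nuclear receptors and corepressors had 1 of 26 (3.85%, Tbl1xr1). Among markers of other cells, members lay at Elane (neutrophil elastase, in a region shared with Plppr3, Prtn3 and Cfd) and Cpa3 (a mast cell protease gene), and at 0 of 9 macrophage, 0 of 6 T cell, 0 of 3 B cell, 0 of 6 dendritic cell and 0 of 4 fibroblast marker genes.

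Late IL-10 was next tested against continuous IL-10. The continuous libraries were chosen to be high in these regions, which favours a lower late value. Late IL-10 was lower in 95 members (7.58%, beside 0.852% of all regions tested) and in 13 of the 3476 regions that were not restored (0.374%). The count depended on the fit: it was 323 (25.8%, beside 4.96%) with the replicate block and 73 (5.82%, beside 0.511%) with edgeR. It was 5 when only the 2 groups were fitted, and for this and the next fits no share over all regions was taken. It was 4 and 8 without late replicates 1 and 2, 191 without late replicate 3, 39, 7 and 12 without continuous replicates 1, 2 and 3, 43 and 55 without untreated replicates 1 and 2, and 183 without LPS replicate 3. All 3 late libraries lay below all 3 continuous libraries in 480 members (38.3%, beside 10.2%). The 95 had a median of 1.29 with late IL-10, close to 1 read, and 5.89 with continuous IL-10. Of these 95, 0 were also called higher than LPS. A late value near 1 read hardly allows such a call, so this follows from the sorting.

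Lig1, a DNA ligase gene, had 100.4, 149 and 80.4 untreated, 13.8, 10.1 and 31.5 after LPS, 158, 117 and 73.9 with continuous and 1.76, 1.79 and 0.886 (1 read each) with late IL-10, at chr7:13301785-13305265. The late libraries lay below all LPS libraries and the continuous libraries overlapped the untreated ones. Continuous IL-10 was at least 26.2-fold above 3 late reads, and the late minus continuous difference of -5.52 (adjusted p = 0.00685) held in every setting tried for named regions. The late minus LPS difference of -2.84 was at an adjusted p of 0.0528, at 0.0221 with the replicate block and at 0.0383 with edgeR.

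Zdhhc14, a palmitoyltransferase gene, had 1191, 1382 and 1135 untreated and 129.8, 188 and 211 with continuous IL-10 at chr17:5723070-5734811. Its LPS values were 1.97, 1.68 and 82.1, and each late library was at 1 read. Late IL-10 was lower than continuous IL-10, by a difference of -6.15 (adjusted p = 0.0134, up to 0.0682 without late replicate 1). Vsig4, a complement receptor of tissue macrophages, had 467, 772 and 288 untreated, 39.4, 26.9 and 3.25 after LPS, 75.9, 103 and 51.3 with continuous and 1.76, 7.17 and 0.886 with late IL-10. The continuous libraries of Vsig4 lay above the others except the untreated ones, and late IL-10 was lower than continuous by a difference of -4.42 (adjusted p = 0.0269, up to 0.117 without late replicate 1). Nipbl, the cohesin loader, and the region shared by Fbxl13 and Lrrc17 also passed (-4.18 and -4.50, adjusted p = 0.0333 and 0.0205, up to 0.126 and 0.106 without continuous replicate 2 and late replicate 1, and lost with edgeR).

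Against untreated cells, which were chosen to be high, late IL-10 was lower in 661 members (52.7%, beside 18.6% of all regions tested) and higher in 15 (1.20%, beside 18.1%). In regions that were not restored, 2882 of 3476 (82.9%) were lower. With the replicate block, 776 members were lower (61.9%, beside 26% of all regions) and 27 were higher (2.15%, beside 25.3%). All 3 late libraries lay below all 3 untreated libraries in 845 members (67.4%, beside 25.9%) and above them in 62 (4.94%, beside 22.9%). The largest loss among the named members was at Mad1l1, chr5:140098845-140118509, with 1807, 1553 and 2152 untreated and 1 read in each late library. Its continuous IL-10 libraries differed widely, at 1.69, 127 and 243, and untreated was at least 414-fold above 3 late reads (difference -9.54, adjusted p = 0.000251). Nxpe5, described above, was called both higher than LPS and lower than untreated with late IL-10.

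The members that hold the other printed windows did not pass against LPS with late IL-10. Slco2b1, an organic anion transporter, has a member of 12511 bp at chr7:99701501-99714011 with 1352, 1075 and 746 untreated, 1 read in each LPS library, 69.1, 81.3 and 172 with continuous and 15.8, 1.79 and 24.8 with late IL-10. Late IL-10 lay below all continuous and untreated libraries, and its difference from LPS of 2.23 did not pass (adjusted p = 0.248), while it was lower than untreated (-6.59, adjusted p = 9.92e-05). Ccr6, a chemokine receptor gene, had 779.8, 806 and 1486 untreated, 1.97, 1.68 and 90.4 after LPS, 74.2, 63.5 and 140.0 with continuous and 33.5, 3.58 and 92.1 with late IL-10, and the late minus LPS difference of 1.45 did not pass (adjusted p = 0.822). Efna1, an ephrin ligand gene, and the region of Ltb4r1, the leukotriene B4 receptor gene, were higher than LPS (4.97 and 5.01, adjusted p = 0.0289 and 0.0387). The calls were lost in 7 and 13 settings, at 0.119 and 0.158 without LPS replicate 1 and at 0.304 and 0.371 with edgeR. At the region of Elane, Prtn3 and Cfd, late IL-10 was higher than LPS by 5.02 (adjusted p = 0.0202, 0.0848 without LPS replicate 1 and 0.129 with edgeR).

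Members lay mostly in distal chromatin. A protein-coding gene was overlapped by 729 (58.1%), 431 (34.4%) were assigned to the nearest gene within 100 kb and 94 had none. A promoter window lay in 66 members (5.26%), against 5.52% of regions that were not restored and 19.8% of all regions under the width limit. More than 10 kb separated 969 members (77.3%) from the nearest start site, with a median distance of 34098 bp against 33855 bp for regions that were not restored and 22734.5 bp for all. These shares were close in members and in regions that were not restored, and the differences from all regions were not tested.

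**Figure D5:**
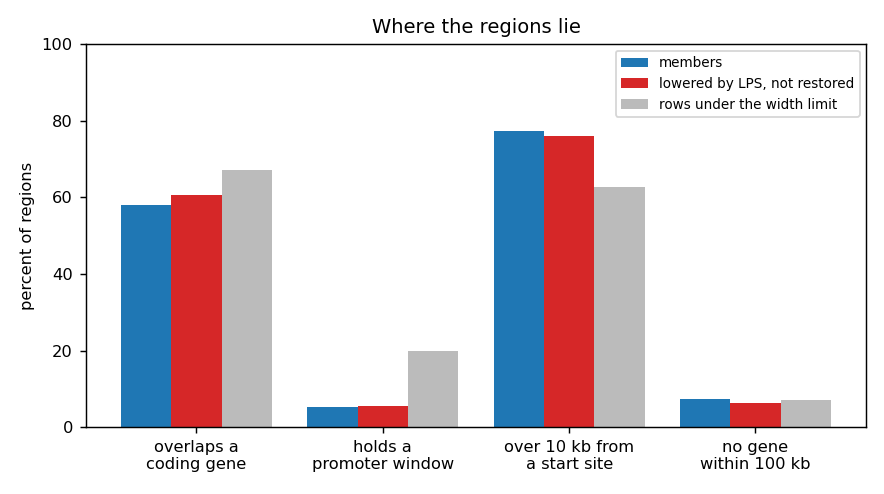
Percent of regions (vertical axis) that overlap a protein-coding gene, hold a promoter window, lie over 10 kb from the nearest start site or have no gene within 100 kb, for members, regions that LPS lowered and continuous IL-10 did not restore, and all regions under the width limit. Promoter windows lie in 5.26% of members and 19.8% of all regions.

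The 1160 members with a gene were assigned to 974 genes, of which 815 had 1 member, 121 had 2 and 38 had 3 or more. Arid1b, a subunit of the BAF chromatin remodelling complex, had 8 members among its 27 regions, spread over 113066 bp of chromosome 17, and all 8 of its regions lowered by LPS were members. Late IL-10 was called higher in 3 of the 8, and late minus LPS ran from -0.13 to 4.77. Babam2 had 5 members, 4 of them called higher with late IL-10. Ppm1h, a phosphatase gene, also had 5, with 0 called and late minus LPS differences of -0.17 to 1.66 beside 2.67 to 6.66 for continuous IL-10. F13a1, which encodes coagulation factor XIII A and is strongly expressed in macrophages, had 4 members in 112254 bp, with -0.26 to 0.39 for late and 3.31 to 4.71 for continuous IL-10, and Ctsh, the protease cathepsin H, had 3 of its 4 regions as members, with -1.08 to 0.21 and 2.85 to 3.61. Members of 1 gene are neighbours and are not replicates of one another. Both schedules share the LPS libraries in these differences.

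Regions beside members had smaller differences in the same direction. Another region lay within 10 kb of 902 members (71.9%), and its median LPS minus untreated difference was -1.55, compared with -1.90 beside regions that were not restored and -0.04 over all regions. That neighbour was itself a member for 100 of the 902 (11.1%), against 4.7% beside regions that were not restored and 3.27% over all regions. It was at least 2 lower with LPS for 369 (40.9%), against 48.4% beside regions that were not restored and 20.2% over all regions. It was at least 2 higher for 31 (3.44%), against 4.43% and 19.1%.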

How the data were processed

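The submitters' processing notes name Bowtie2, DiffBind, MACS2 and Trim Galore and the build mm10, without roles. For each consensus region the authors deposited 1 signal value per library. In every library 100% of values were whole multiples of the smallest, within 0.0001 reads, so the signal is whole reads times 1 factor per library, never below 1 read, and whether background reads were subtracted is not given. The input library was not used here.

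Members, lists, tests and the rule for named regions were chosen with earlier results of these data known. Named are members on the gene lists, those with the largest continuous or late IL-10 differences, the strongest untreated, promoter-holding and threshold members. Regions were tested with limma 3.58.1 (R 4.3.3, trend and robust) on log2(value + 1) of all 12 libraries by group, for 36621 regions above the 10th percentile of the mean, with Benjamini-Hochberg adjustment and calls under 0.05. Every adjusted p comes from limma unless edgeR 4.0.16 is named, and differences are on the log2(value + 1) scale, which understates those of weak regions. With 3 libraries a group, exact permutation p-values start at 0.1, so none were used. Folds against a group at or under 3 reads in all libraries are bounds against 3 reads per region and library. The fit was tested on simulated data. Same-numbered libraries deviated together (correlations of 0.0993 to 0.712 over 18 pairs, all pairs with a late library above 0.1). With the 3 pools of the labels, the numbers were taken as pairs in the held-out reading and in the replicate block, a fit with a term for replicate number. The main fit leaves this pairing out, and it gave the printed counts and adjusted p unless another fit is named. Genes, promoters and miRNAs come from RefSeq tables of GRCm38.p6, with region starts read as 1-based. Alternatives were other pseudocounts, scaling, filters, fits and libraries left out. Some members on the gene lists are not reported here.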

Additional observations from a re-analysis of the deposited data

How the results depend on the processing

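The number of members was 1254 as chosen, 405 with a pseudocount of 10, all of them among the 1254, and 1162 to 1378 with a pseudocount of 0.5, median-of-ratios scaling or no width limit. It ran from 1174 to 2096 with single libraries or replicate numbers left out, and the 2096 came without LPS replicate 3. Members higher with late IL-10 than with LPS numbered 62 when only these 2 groups were fitted, 344 with the replicate block and 193 with edgeR on the recovered reads (883 of all regions), and 153 to 271 with 1 library left out, with 153 without late replicate 1 and also without late replicate 2. Members lower with late than with continuous IL-10 numbered 5 when only the 2 groups were fitted, 323 with the replicate block and 73 with edgeR (187 of all regions). They numbered 4 to 191 with 1 library left out: 43 and 55 without untreated replicates 1 and 2, 183 without LPS replicate 3, 39, 7 and 12 without continuous replicates 1, 2 and 3, and 4, 8 and 191 without late replicates 1, 2 and 3. Members lower than untreated numbered 548 (edgeR, 5887 of all regions) to 776 (replicate block) and 489 to 739 with 1 library left out. Counts over all regions were not taken for fits of only 2 groups or with a library left out. Of the results for named regions under the alternatives, 1887 stayed the same, 236 lost their call, 5 gained one and none reversed. The 1887 include results of regions that were not called in the main fit. Few reads per region after LPS limit the precision there.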

Other observations

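Hairpins of 4 miRNA genes lay in members, namely Mir511, Mir7681, Mir8100 and Mir1904. The Mir7681 member stood 2.73 above LPS with continuous and 3.23 with late IL-10, while the Mir8100 member stood 2.44 above with continuous and at -1.44 with late IL-10. Members made up between 1.57% (X) and 4.12% (13) of the regions of a chromosome.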
